A study of Homo sapiens with 183 samples.

Results

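Intestinal identity is read here from 8 genes, 3 homeobox transcription factors (CDX1, CDX2 and ISX), 3 cell-surface or secreted proteins (CDH17, GPA33 and LGALS4) and 2 genes of intestinal fluid secretion (CFTR and GUCY2C). They were chosen by name and make up 8 of the 19875 gene names in the deposited tables, and all 8 were listed in each of the 8 tables. The tables hold TPM (transcript abundance scaled for length and library total) from polyA RNA of 183 cell line libraries. T84, a colorectal carcinoma line, was taken first, followed by the pancreatic ductal adenocarcinoma lines AsPC-1, SUIT-2, CFPAC-1, T3M-4 and BxPC-3, with the melanoma line A375, the small cell lung cancer line H1048 and the alveolar rhabdomyosarcoma line RH30 beside them.

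Parental T84, A375, H1048 and RH30 cells were exposed for 24 h to CB-6644, an allosteric inhibitor of the ATPase formed by RUVBL1 and RUVBL2, or to DMSO, with 4 libraries in each group. AsPC-1 and T3M-4 cells carrying an empty vector (EV), a RUVBL1 A62T vector or a RUVBL2 dF109 vector, the last 2 being variants that resist the inhibitor, were exposed to CB-6644 (3 libraries per vector) or DMSO (1 library per vector). In the pancreatic lines, cells expressing Cas9 were given guide RNAs and collected on day 5, and the controls (sgRosa, against the ROSA26 locus) carried the same nuclease. The guides were directed against KLF5, a zinc finger transcription factor, RUVBL1 or RUVBL2, CHD4 (a nucleosome remodelling ATPase), SERPINB5 (a serpin), or the essential genes CDK1 and RPA3, whose loss stops growth. Knockout populations were bulk cultures, not clones, so edited and unedited cells were measured together, and the guide received by each replicate is not given in the labels. Groups with guides against KLF5, RUVBL1, RUVBL2, SERPINB5 or ROSA26 hold libraries of 2 guides each and were analysed with the guides mixed. AsPC-1 was used in experiment 1 (2 sgRosa and 6 sgKLF5 libraries), experiment 2 (4 each of sgRosa, sgRUVBL1 and sgSERPINB5), experiment 3 (4 each of sgRosa, sgKLF5, sgRUVBL1 and sgRUVBL2, 2 each of sgCDK1 and sgRpa3) and a CHD4 experiment (4 sgRosa and 4 sgCHD4). SUIT-2 had 4 sgRosa and 4 sgKLF5 libraries. T3M-4 had 2 sgRosa, 4 sgKLF5 and 2 sgRpa3 libraries in experiment 1, and 4 sgRosa, 4 sgKLF5, 3 sgRUVBL1, 4 sgRUVBL2, 2 sgCDK1 and 2 sgRpa3 in experiment 2. BxPC-3 had 2 sgRosa, 4 sgKLF5 and 2 sgRpa3 libraries, then 4 sgRosa, 4 sgKLF5, 4 sgRUVBL1, 3 sgRUVBL2, 2 sgCDK1 and 2 sgRpa3. CFPAC-1 had 4 sgRosa, 3 sgKLF5, 4 sgRUVBL1, 2 sgRUVBL2, 2 sgCDK1 and 2 sgRpa3.

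CDX1 and CDX2 are caudal-type homeobox factors that set and keep the intestinal fate of the gut epithelium, and CDX2 is used as a marker of intestinal origin in tumours. ISX is a homeobox factor of the intestinal lining that restrains vitamin A formation. CDH17 (liver-intestine cadherin) joins intestinal epithelial cells, GPA33 is an immunoglobulin-type surface antigen of colon epithelium, and LGALS4 (galectin-4) is a glycan-binding lectin of the digestive tract. CFTR is the apical chloride channel, and GUCY2C is the guanylate cyclase receptor that answers guanylin peptides with cyclic GMP, which opens CFTR. Normal pancreas has little CDX2, and some pancreatic cancers express intestinal genes.

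All 8 genes are annotated as protein coding on hg38. CDX1 lies on the plus strand at chr5:150166778-150184558, CDX2 on the minus strand at chr13:27960918-27969315 and ISX on the plus strand at chr22:35066136-35087387. LGALS4 lies on the minus strand at chr19:38801671-38812945, and GPA33 on the minus strand at chr1:167052836-167166479. CFTR occupies chr7:117287120-117715971 on the plus strand and GUCY2C chr12:14612632-14696599 on the minus strand.

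Upstream sequence from RefSeq (GRCh38.p14) was at hand for 5 of the 8 genes, and 4 are printed, those of CDX2, LGALS4 and GPA33, which the AsPC-1 knockouts changed in 1 direction or the other, and that of CFTR, which was high in T3M-4 after sgKLF5. Each run is the 250 bases before the RefSeq start, read 5′ to 3′ on the strand of the gene. Capitals mark matches, on either strand, to a CACCC box (CCACCC, the letters bound by Krüppel-like factors) or a GATA motif (TGATAA). The windows are chr13:27969316-27969565 for CDX2, chr19:38812946-38813195 for LGALS4, chr1:167090378-167090627 for GPA33 and chr7:117479775-117480024 for CFTR, and those of GPA33 and CFTR fall inside the longer gene span given above.
CDX2: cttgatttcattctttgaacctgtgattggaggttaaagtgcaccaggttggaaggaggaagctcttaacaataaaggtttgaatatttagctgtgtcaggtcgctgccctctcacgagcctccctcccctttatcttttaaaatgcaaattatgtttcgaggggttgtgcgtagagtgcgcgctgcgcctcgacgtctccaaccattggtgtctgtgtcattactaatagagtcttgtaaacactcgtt
LGALS4: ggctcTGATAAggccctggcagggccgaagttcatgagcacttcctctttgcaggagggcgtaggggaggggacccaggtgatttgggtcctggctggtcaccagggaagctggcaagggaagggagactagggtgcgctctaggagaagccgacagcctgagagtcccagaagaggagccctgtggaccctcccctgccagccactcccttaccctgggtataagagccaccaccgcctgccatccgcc
GPA33: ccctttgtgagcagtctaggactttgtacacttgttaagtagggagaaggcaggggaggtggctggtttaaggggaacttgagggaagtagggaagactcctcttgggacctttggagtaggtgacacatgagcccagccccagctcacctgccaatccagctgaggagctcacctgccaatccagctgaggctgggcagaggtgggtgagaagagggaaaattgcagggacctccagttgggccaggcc
CFTR: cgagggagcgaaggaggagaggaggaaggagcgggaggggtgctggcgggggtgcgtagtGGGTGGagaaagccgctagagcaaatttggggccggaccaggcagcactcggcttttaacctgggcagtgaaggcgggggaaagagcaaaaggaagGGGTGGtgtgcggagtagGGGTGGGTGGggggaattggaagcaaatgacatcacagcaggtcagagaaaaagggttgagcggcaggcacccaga
The CFTR window held 4 matches to the CACCC box, starting 190, 94, 76 and 72 bases before the start, of which the last 2 overlap. That box was found in 31.3% of 35116 promoter windows of equal length. LGALS4 held 1 GATA match 245 bases before its start, a motif found in 6.66% of windows, and neither motif was in the CDX2 or GPA33 window. A GC box (CCGCCC, in 42.6% of all windows) and a CDX motif (TTTATG, in 9.64%) were searched as well, with no match in the 5 windows. The ISX window, not printed, held 1 GATA match 93 bases before the start. Between 45.2% (CDX2) and 63.2% (LGALS4) of the bases were G or C, against a median of 58.0% over all windows. CDX1, CDH17 and GUCY2C had no entry in the promoter table. A match is a description of letters and says nothing of binding in these cells.

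The tables give no read counts, so depth per library is unknown, and 11292 to 14024 genes reached 1 TPM per library. Intestinal markers other than the 8 genes (among them VIL1, KRT20, MUC2, FABP1, PHGR1, CDHR2 and CDHR5) were at 1 TPM or more in T84 for 8 of 8, with a summed level of 2116 to 2231 TPM over its 4 DMSO libraries. AsPC-1 controls had 4 of 8 and summed to 113 to 488 TPM, and no control library of another line summed above 20.6 TPM. RH30 expressed 6 of 6 skeletal muscle markers, H1048 4 of 6 tuft cell markers, A375 3 of 6 melanoma markers, BxPC-3 and T3M-4 6 of 6 basal-type pancreatic cancer markers, and CFPAC-1, AsPC-1 and SUIT-2 7, 5 and 5 of 7 classical-type markers. BxPC-3, T3M-4 and T84 also had 7, 6 and 6 of those 7 at 1 TPM or more. SUIT-2 also had 4 of 6 tuft cell markers, and H1048 3 of 6 melanoma markers, so those counts alone did not single out a line. Median summed control levels did, with tuft cell markers at 716 TPM in H1048 and next 38.3 TPM in RH30. Melanoma markers summed to 254 TPM in A375 and next 28.2 TPM in CFPAC-1. Classical-type markers summed to 3051 TPM in CFPAC-1, 2207 TPM in SUIT-2 and 662 TPM in AsPC-1. T3M-4 (1764 TPM), T84 (1031 TPM) and BxPC-3 (943 TPM) all lay above AsPC-1. That sum therefore did not set the classical-type lines apart from the basal-type lines. In their own knockouts RUVBL1 fell by 1.14 to 1.87 on the log2 scale in AsPC-1, T3M-4, BxPC-3 and CFPAC-1, and RUVBL2 fell by 1.24 to 1.76. KLF5 transcript moved by -0.41 to 0.78 in the sgKLF5 groups and CHD4 by 0.28 in sgCHD4, which gives no check of those labels, since small insertions and deletions at a Cas9 cut need not lower a transcript. CDK1 moved by -1.47 to -0.10 in the sgCDK1 groups and RPA3 by -1.40 to -0.26 in the sgRpa3 groups. In AsPC-1 and CFPAC-1 neither passed an adjusted p of 0.05 by limma, so those groups are likewise unchecked.

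At baseline T84 carried 7 of the 8 genes at 1 TPM or more, AsPC-1 4, SUIT-2 3, CFPAC-1 3, RH30 2, T3M-4 and H1048 1 each, and BxPC-3 and A375 none, judged by the mean of the control libraries (sgRosa or DMSO). TPM values are scaled for transcript length and depth, so levels may be set beside one another within a table, while levels across tables were normalized separately and are placed side by side only. The members summed to 1587 to 1689 TPM in T84, 1056 to 2198 TPM in AsPC-1 and 177 to 196 TPM in SUIT-2. In the other 6 lines the sum reached at most 8.46 TPM.

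Of the homeobox factors, CDX1 was found in T84 at 139, 138, 134 and 136 TPM and was listed at 0 in every control library of the other 8 lines but 1 H1048 library at 0.0689 TPM. CDX2 was broader. Its control level was 97.8, 90.1, 89.2 and 84.8 TPM in T84 (90.5 ± 5.42, SD, n = 4). It reached 6.32, 10.2, 11.4 and 12.8 TPM in SUIT-2, 5.41 to 11.9 TPM (median 7.56, 17 libraries) in AsPC-1 and 7.48, 8.26, 7.25 and 6.74 TPM in H1048, and these 3 lines overlapped. T3M-4 (2.67 to 4.07 TPM, 9 libraries) and CFPAC-1 (2.1 to 2.93 TPM) lay below them and overlapped each other, BxPC-3 (0.315 to 1.05 TPM) lay lower still, and RH30 and A375 were at 0.163 TPM or less. ISX was close to the floor everywhere, with a highest control value of 0.272 TPM in T84.

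The surface and lectin genes were shared by T84 and AsPC-1. CDH17, on the minus strand of hg38 at chr8:94127162-94217303, was 320 to 373 TPM in the 4 T84 DMSO libraries and 652 to 1224 TPM (median 860) in the 17 AsPC-1 controls, so AsPC-1 lay above T84 without overlap, and no control library elsewhere exceeded 1.94 TPM. LGALS4 was 757 to 833 TPM in T84, 346 to 705 TPM (median 615) in AsPC-1 and 164 to 180 TPM in SUIT-2, 3 ranges that did not overlap, and was under 2 TPM in every other line. GPA33 was 124 to 133 TPM in T84 and 22 to 260 TPM (median 82.4) in AsPC-1, which overlap. RH30, a muscle-type tumour line, had GPA33 at 4.84, 4.83, 5.84 and 5.09 TPM, above the 0.142 TPM that was the highest control value among the other 6 lines.

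Both secretion genes were set apart in T84. CFTR was 31.9, 41.2, 37.8 and 42.9 TPM there and 0.856, 1.2, 2.97 and 4.5 TPM in SUIT-2, while AsPC-1 controls did not exceed 0.0481 TPM. CFPAC-1 had 0, 1.04, 0.0376 and 0.0923 TPM. GUCY2C was 75.4, 82.7, 75.1 and 83.7 TPM in T84, and 0.27 to 1.68 TPM in AsPC-1, 0.367 to 0.724 TPM in SUIT-2 and 0.275 to 1.08 TPM in T3M-4, with these 3 overlapping.

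**Figure D1:**
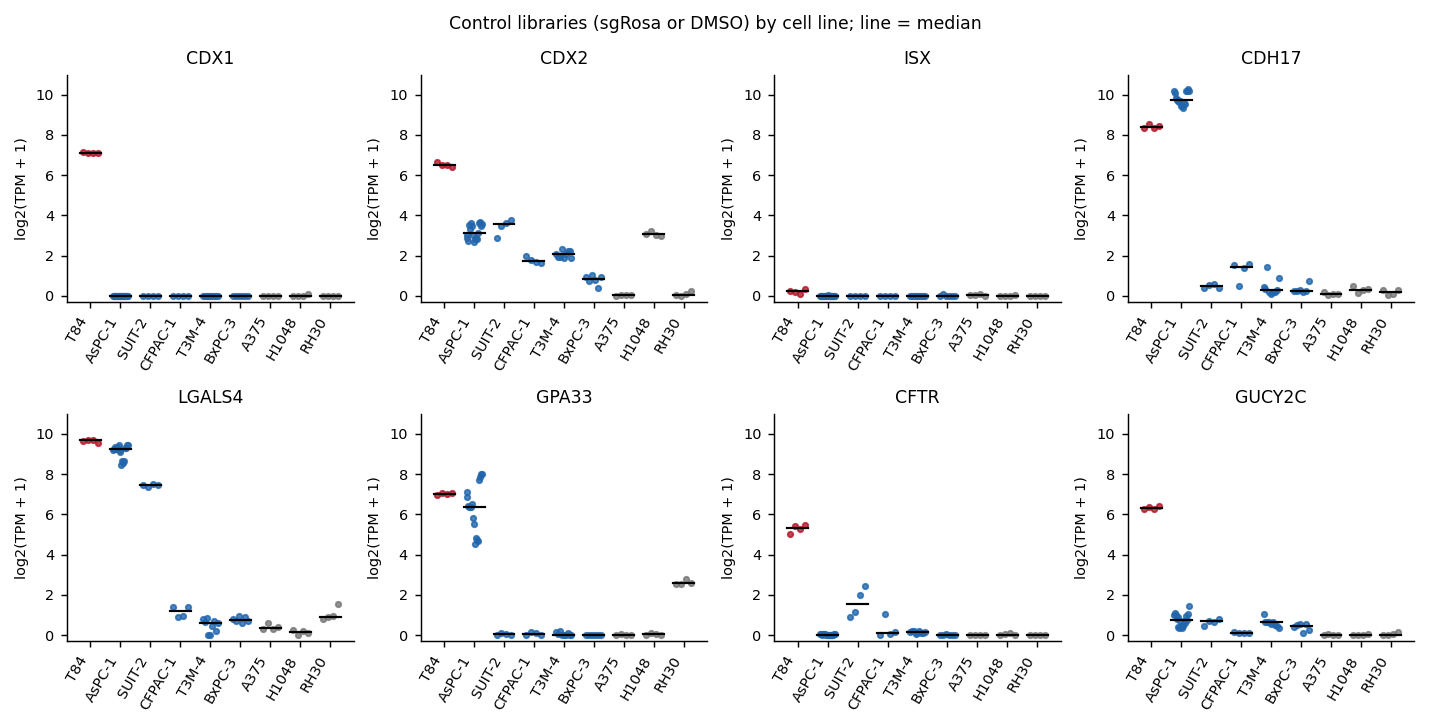
Level of each of the 8 genes, as log2(TPM + 1), in the sgRosa or DMSO libraries of 9 lines (x axis), with T84 in red, pancreatic lines in blue, the other lines in grey, points as libraries and a black line at the median. CDX1 is above 0 only in T84 and 1 H1048 library at 0.0689 TPM, CDX2 is present in most lines, CDH17 is highest in AsPC-1 (652 to 1224 TPM), and GPA33 spreads from 22 to 260 TPM within AsPC-1.

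T84, A375, H1048 and RH30 share 1 table, so T84 DMSO could be tested against the other 3 DMSO groups. The fit was made on log2(TPM + 1) with limma, and 91.2% of all genes tested passed an adjusted p of 0.05. All 7 members tested were higher in T84. Of these, 5 (CDX1, CDH17, LGALS4, CFTR and GUCY2C) met the mean of 1 TPM only through T84 and had to differ. The count of 7 is therefore a description, and no median over the members is set against all genes. For the other 2, CDX2 was 36.2-fold and GPA33 74.8-fold as high in T84 as in the mean of the other 3 lines. Those lines were unlike, with nearly all of that CDX2 in H1048 (mean 7.43 TPM) and of that GPA33 in RH30 (mean 5.15 TPM). ISX did not meet the filter.

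Likeness between genes was described by Pearson's r of the mean control log2(TPM + 1) over the 9 lines, among 13470 genes, where lines from separate tables share no library but T84 alone can set a high value. CDX1 and GUCY2C had r = 0.989 and CFTR and GUCY2C 0.962, which rests on T84. CDH17 and GPA33 had r = 0.935, which rests on T84 and AsPC-1, as does any high value for CDH17. CDX2 was less like the rest, with 0.773 to CDX1 and 0.676 to CDH17. The genes closest in pattern were CADPS, HEPH and C3orf85 for CDX1 (0.9998 to 0.9992), DUSP18, DEGS2 and CLDN3 for CDX2 (0.96 to 0.93), and MYO1A (0.997), a brush border myosin, with CCL14 and CCL15 for CDH17. LGALS4 was closest to USH1C (0.99), SLC6A20 and ANKS4B, GPA33 to IRF8 (0.99), RFLNA and MYO7B, and CFTR to FABP1 (0.997) and OLFM4. GUCY2C was closest to HEPH (0.99), C3orf85 and PLA2G2A.

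In T84, CB-6644 lowered both CDX factors and GPA33, left LGALS4, CFTR and GUCY2C without a call, and was followed by a small rise of CDH17. CDX1 went from 139, 138, 134 and 136 TPM in DMSO (136.7 ± 2.48, SD, n = 4) to 60.5, 64.6, 60.6 and 65.8 TPM (62.9 ± 2.75), and CDX2 from 90.5 ± 5.42 to 51.4, 54.2, 52.5 and 54.2 TPM (53.1 ± 1.34). For neither gene did the groups overlap. The log2 fold changes were -1.11 (SE 0.044, adjusted p = 1.91e-11) for CDX1 and -0.76 (SE 0.049, adjusted p = 2.65e-09) for CDX2 by limma. The background was wide, with 71.4% of all genes tested passing, 66.1% of them higher (44.4% after median-of-ratios scaling) and a median of 0.13. Of the 7 members tested 1 rose and 3 fell, with a median of -0.03. In bulk RNA, fewer cells of a type and less RNA per cell cannot be told apart.

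GPA33 fell from 124, 133, 129 and 131 TPM to 98.7, 109, 106 and 102 TPM, a log2 fold change of -0.32 (SE 0.043, adjusted p = 8.17e-06) with no overlap. CDH17 was 320, 373, 324 and 351 TPM in DMSO and 404, 391, 387 and 380 TPM after the inhibitor, 0.19 higher on the log2 scale (adjusted p = 0.00171), and this call was lost under median-of-ratios scaling (0.00, adjusted p = 0.957). LGALS4 changed from 816, 830, 833 and 757 to 777, 813, 817 and 769 TPM (log2 fold change -0.03, 95% interval -0.11 to 0.06, adjusted p = 0.547), but was lower after that scaling (-0.22, adjusted p = 0.00097). CFTR had 38.5 ± 4.85 and 39.2 ± 1.73 TPM, and its log2 fold change of 0.04 (interval -0.13 to 0.20) became -0.15 after scaling, without a call on either scale. GUCY2C had 79.2 ± 4.61 and 81.2 ± 1.91 TPM, with a log2 fold change of 0.04 (interval -0.07 to 0.14) that became -0.15 (adjusted p = 0.0058) after scaling. ISX had 0.194, 0.121, 0.0555 and 0.272 TPM in DMSO and 0.101, 0.0324, 0.121 and 0.0304 TPM with the inhibitor, under the filter and not tested.

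**Figure D2:**
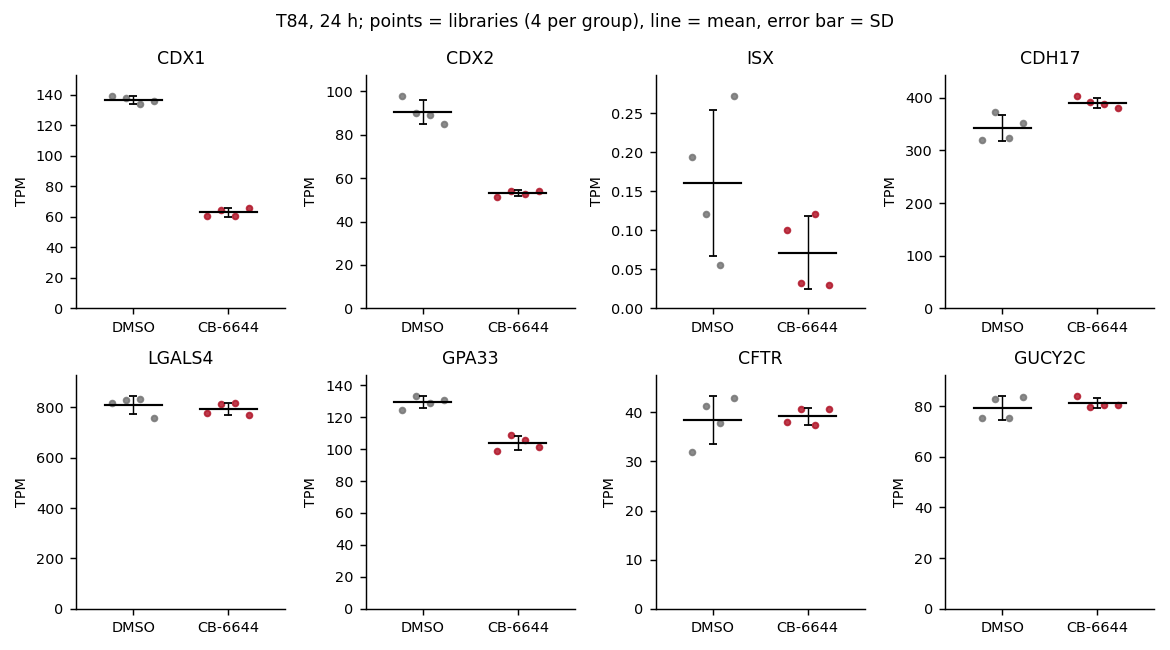
TPM of the 8 genes in T84 after 24 h of DMSO (grey) or CB-6644 (red), 4 libraries per group as points, with the mean as a line and the SD as an error bar. CDX1 (136.7 to 62.9 TPM), CDX2 (90.5 to 53.1 TPM) and GPA33 (129 to 104 TPM) are lower in every inhibitor library, while LGALS4, CFTR and GUCY2C overlap between groups.

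The other intestinal genes of T84 are read against the same background, in which 71.4% of all genes passed, 66.1% of these upward (44.4% after scaling), with a median of 0.13. Of 19 intestinal transcription factors tested 2 rose and 12 fell, a share passing close to that of all genes, with a median log2 fold change of -0.34. ATOH1 (secretory fate, -1.32), ASCL2 (stem cell fate, -0.92) and GATA6 (-0.67) were among those that fell. HNF4G (-0.41) and KLF5 (-0.50) fell as well, HNF4A had 0.03 (adjusted p = 0.71), and FOXA3 (0.53) rose. Of 13 enterocyte genes 9 rose and 3 fell (median 0.42), with CDHR5 (1.07), KRT20 (0.79) and A1CF (0.73) up and FABP1 (-1.32) and MYO1A (-0.81) down. Among colon and stem cell genes 4 of 10 rose and 6 fell, with MUC13 at 0.62 and OLFM4 at -1.23. Of 6 goblet and secretory genes 1 rose and 3 fell, AGR3 by -1.26. Around GUCY2C and CFTR, 2 of 7 genes rose and 3 fell, with the scaffold PDZK1 at 1.32, the ligand GUCA2A at 0.50, and the channels ANO1 at -0.57 and KCNE3 at -0.56.

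The other parental lines had few members to test. H1048 had CDX2 alone, 7.43 ± 0.632 TPM in DMSO against 6.72, 6.99, 6.14 and 5.89 TPM in CB-6644, 0.18 lower on the log2 scale (log2 fold change -0.18, adjusted p = 0.0425, lost without any of 5 libraries, at -0.13 to -0.19), in a comparison where 77.9% of genes passed, with a median of 0.18. RH30 had GPA33 alone, which fell from 4.84, 4.83, 5.84 and 5.09 to 1.06, 0.944, 0.966 and 0.946 TPM with no overlap (-1.63 on the log2 scale, SE 0.080, adjusted p = 2.01e-09). In RH30, 77.7% of genes passed and 0.239% fell as far as GPA33. The inhibitor libraries averaged under 1 TPM, so GPA33 met the filter only through the DMSO libraries and its call is given as a description. A375 had no member above the filter.

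The AsPC-1 sgRosa groups differed between experiments, among the 4 members at 1 TPM or more most for GPA33, whose sgRosa means were 24.8, 50.3, 84 and 239.7 TPM in experiment 2, experiment 1, the CHD4 experiment and experiment 3. The highest of these was 9.68 times the lowest, a ratio exceeded by 0.29% of 11732 genes, where the median gene had 1.38. For CDX2, LGALS4 and CDH17 the ratio was 1.78, 1.74 and 1.66. Each knockout was therefore compared only with sgRosa of its own experiment.

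After sgKLF5 in AsPC-1, CDX2 rose and LGALS4 fell in both experiments, GUCY2C rose in experiment 3, and CDH17 and GPA33 differed between the experiments. CDX2 had 6.98 and 5.41 TPM in sgRosa of experiment 1 and, over 6 sgKLF5 libraries, 14.6 to 17.7 TPM (median 15.4), 2.52-fold higher. In experiment 3 it went from 11.2, 11.9, 10.2 and 10.9 TPM to 18.9, 20.8, 22.4 and 17.4 TPM, 1.80-fold higher. No sgKLF5 library overlapped the controls of its experiment. On the log2 scale these were 1.21 (SE 0.12, adjusted p = 3.88e-05) and 0.79 (adjusted p = 4.57e-06), and their difference of 0.43 did not pass (adjusted p = 0.124). GUCY2C was 0.603 and 0.362 TPM in sgRosa and 1.13 to 1.86 TPM in sgKLF5 of experiment 1, where it met the filter only through the sgKLF5 libraries (0.77, adjusted p = 0.00501, a description). In experiment 3 GUCY2C rose from 0.959, 0.656, 1.1 and 1.68 TPM to 3.09, 2.94, 3.8 and 2.76 TPM (1.00 on the log2 scale, adjusted p = 0.000394). In experiment 1, 5 members were tested, and leaving aside GUCY2C, which had to be higher there, 2 of the other 4 rose and 1 fell, beside 25.9% of all genes passing (66.0% of them higher, 50.3% after scaling). Experiment 3 had 2 of 5 higher and 3 lower, against 27.8%. The median over the 5 members of experiment 3 was -0.57, beside 0.02 over all genes. No median is given for experiment 1, where GUCY2C had to be higher.

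LGALS4 fell from 540 and 590 TPM to 416 to 503 TPM in experiment 1 (log2 fold change -0.29, adjusted p = 0.0123) and from 619, 632, 705 and 695 TPM to 289, 339, 351 and 391 TPM in experiment 3 (-0.96, adjusted p = 1.3e-08). CDH17 had 820 and 690 TPM in sgRosa and 596 to 849 TPM in sgKLF5 of experiment 1 (-0.07, interval -0.38 to 0.24, adjusted p = 0.754). The sgKLF5 libraries fell into 2 sets, replicates 1 to 3 at 849, 802 and 807 TPM and replicates 4 to 6 at 596, 670 and 614 TPM. Replicates 4 to 6 lay below both sgRosa libraries. In experiment 3 CDH17 fell from 1161, 1147, 1224 and 1142 TPM to 723, 814, 813 and 790 TPM (-0.57, adjusted p = 5.05e-08), with no overlap. GPA33 turned direction. It rose from 56.0 and 44.7 TPM to 61.2 to 70.7 TPM in experiment 1 (0.39, adjusted p = 0.0105) and fell from 210, 231, 258 and 260 TPM to 69.5, 87.9, 106 and 110 TPM in experiment 3 (-1.37, adjusted p = 6.38e-06), where 0.834% of genes fell as far. The tested differences of the effects, experiment 1 minus experiment 3, were 1.76 for GPA33 (adjusted p = 3.98e-05), 0.67 for LGALS4 (adjusted p = 0.000472), 0.50 for CDH17 (adjusted p = 0.0239) and -0.23 for GUCY2C (adjusted p = 0.785), so 3 of 5 members passed where 4.28% of all genes did. Experiment 1 rests on 2 sgRosa libraries. Without its sgRosa replicate 2, LGALS4 (-0.23, adjusted p = 0.168), GPA33 (0.23, adjusted p = 0.199), GUCY2C (0.65, adjusted p = 0.084) and the CDH17 difference (0.38, adjusted p = 0.338) no longer passed. That CDH17 difference was also lost without sgKLF5 replicate 1 (0.46, adjusted p = 0.0579) or sgRosa replicate 3 (0.48, adjusted p = 0.0523) of experiment 3.

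Set against the pooled sgCDK1 and sgRpa3 libraries of experiment 3, the knockouts of essential genes, sgKLF5 had higher CDX2 (0.78, adjusted p = 4.67e-06) and lower CDH17 (-0.89, adjusted p = 2.33e-10), LGALS4 (-0.93, adjusted p = 1.85e-08) and GPA33 (-1.63, adjusted p = 6.77e-07). GUCY2C did not pass here (0.48, adjusted p = 0.0541) and had 1.64 and 2.18 TPM in sgCDK1 and 2.04 in each sgRpa3 library. That made 1 higher and 3 lower of 5, against 34.7% of all genes. The pool mixed unlike groups, with CDH17 at 1736 and 1729 TPM in sgCDK1 and 1180 and 1245 TPM in sgRpa3. The CDH17 value against it thus holds the high sgCDK1 level as well. The same libraries served as controls for several contrasts, which are therefore not independent of one another.

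The essential-gene controls were set against sgRosa as well. In sgCDK1, CDH17 rose to 1736 and 1729 TPM from 1142 to 1224 TPM (0.57, adjusted p = 6.91e-06), the 1 member of 5 that passed, where 16.7% of genes did, and with only sgCDK1 and sgRosa in the fit 3 of 5 passed. Values for GPA33 (0.30, adjusted p = 0.39) and LGALS4 (-0.20, adjusted p = 0.149) were not called. In sgRpa3 none of 5 members passed by limma, 1 had an unadjusted p under 0.05, and 0.654% of all genes passed. For sgSERPINB5 in experiment 2 none of 4 members passed, none had an unadjusted p under 0.05, and 0.0343% of genes passed. CDX2 had 9, 5.1, 5.88 and 4.95 TPM there (-0.07, interval -0.39 to 0.24), CDH17 734, 734, 763 and 636 TPM (0.02, interval -0.11 to 0.15) and GPA33 33, 28.2, 25.3 and 25.6 TPM (0.17, interval -0.04 to 0.37).

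Knockout of RUVBL1 lowered CDX2, CDH17 and GPA33 in both AsPC-1 experiments. CDX2 went from 5.96, 6.36, 5.96 and 7.56 to 4.90, 4.74, 3.85 and 3.89 TPM in experiment 2 (-0.48, adjusted p = 0.012) and to 7.39, 7.97, 8.82 and 9.57 TPM from 10.2 to 11.9 TPM in experiment 3 (-0.36, adjusted p = 0.00541), without overlap in either. CDH17 fell from 681, 652, 759 and 733 to 468, 522, 511 and 489 TPM (-0.50, adjusted p = 5.9e-06) and, in experiment 3, to 824, 870, 976 and 893 TPM (-0.39, adjusted p = 5.33e-06). GPA33 moved from 22, 26.9, 25.5 and 24.6 to 21.7, 17.9, 21.3 and 19.0 TPM in experiment 2 (-0.30, adjusted p = 0.015), a call lost without sgRUVBL1 replicate 2 (-0.25, adjusted p = 0.054), and to 94.2, 79.5, 166 and 144 TPM in experiment 3 (-1.04, adjusted p = 8.93e-05).

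LGALS4 went opposite ways, up in experiment 2 (346, 402, 371 and 400 to 423, 420, 449 and 423 TPM, 0.18, adjusted p = 0.0335, and not called at 0.14 after median-of-ratios scaling) and down in experiment 3 (to 572, 525, 582 and 588 TPM, -0.22, adjusted p = 0.0186). The first call was lost without any of 5 of its 8 libraries (0.13 to 0.18) and the second without sgRUVBL1 replicate 2 or sgRosa replicates 3 or 4 (-0.19 to -0.20). The difference of the effects, experiment 2 minus experiment 3, was 0.40 for LGALS4 (adjusted p = 0.00945) and 0.74 for GPA33 (adjusted p = 0.0184), and did not pass for CDX2 (-0.13, adjusted p = 0.667), CDH17 (-0.11, adjusted p = 0.366) or GUCY2C (-0.01, adjusted p = 0.976). That GPA33 difference was 0.56 (adjusted p = 0.055) without sgRUVBL1 replicate 2 of experiment 3, and 18.2% of all genes passed. GUCY2C was 1.53, 2.70, 1.6 and 1.63 TPM in sgRUVBL1 of experiment 3 and 0.656 to 1.68 TPM in sgRosa, which overlap (0.45, adjusted p = 0.0495, not called at 0.34 after scaling, nor without any of 7 of its 8 libraries, at 0.32 to 0.50). Of 4 members in experiment 2, 1 rose and 3 fell where 55.8% of genes passed. In experiment 3, 1 of 5 rose and 4 fell where 51.9% passed (70.6% of them higher, 47.0% after scaling), and 3 of 5 members passed without sgRUVBL1 replicate 2 or sgRosa replicate 3. Both shares of members, at 4 of 4 and 5 of 5, are read against those wide backgrounds.

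Knockout of RUVBL2 in experiment 3 gave the same direction for CDX2 (9.45, 8.90, 8.24 and 7.86 TPM, -0.33, adjusted p = 0.0119), CDH17 (1027, 1022, 1015 and 1047.6 TPM, -0.18, adjusted p = 0.00669), LGALS4 (563, 520, 612 and 545 TPM, -0.24, adjusted p = 0.0146) and GPA33 (155, 142, 163 and 141 TPM, -0.67, adjusted p = 0.00512). GUCY2C had 1.41, 0.585, 1.81 and 1.67 TPM (0.16, adjusted p = 0.505). That is 4 lower of 5, against 43.2% of all genes (74.5% of them higher, 46.3% after scaling). Against sgCDK1 and sgRpa3, 4 of 5 members were lower both in sgRUVBL1 (51.2% of genes passing) and in sgRUVBL2 (42.1%), with GPA33 at -1.30 (adjusted p = 8.51e-06) and -0.93 (adjusted p = 0.000429) and CDH17 at -0.70 (adjusted p = 7.36e-09) and -0.50 (adjusted p = 1.1e-06). LGALS4 had -0.19 (adjusted p = 0.0388) and -0.21 (adjusted p = 0.03), each lost without any of 5 libraries (-0.16 to -0.23). Both CDH17 values hold the high sgCDK1 level of that pool.

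Knockout of CHD4 in AsPC-1 lowered all 4 members tested, GPA33 most. GPA33 fell from 80.8, 82.4, 82.2 and 90.6 TPM to 10.8, 8.23, 12.9 and 15.2 TPM, a change of -2.76 on the log2 scale (adjusted p = 2.69e-08), and 0.0168% of genes fell as far. CDX2 fell from 10.4, 9.07, 11.1 and 9.92 to 3.73, 2.93, 3.60 and 3.99 TPM (-1.29, adjusted p = 1.44e-06), and CDH17 from 860, 865, 820 and 797 to 387, 302, 408 and 396 TPM (-1.17, adjusted p = 3.29e-07). LGALS4 moved least, from 610, 617, 645 and 694 to 522, 531, 509 and 525 TPM (-0.30, adjusted p = 0.000145). In none of the 4 did the groups overlap. GUCY2C, under the filter, had 0.744, 0.313, 0.834 and 0.277 TPM in sgRosa and 0.632, 0.514, 1.13 and 0.698 TPM in sgCHD4. The background was 50.0% of genes, with a median of -0.03 against -1.23 for the members.

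**Figure D3:**
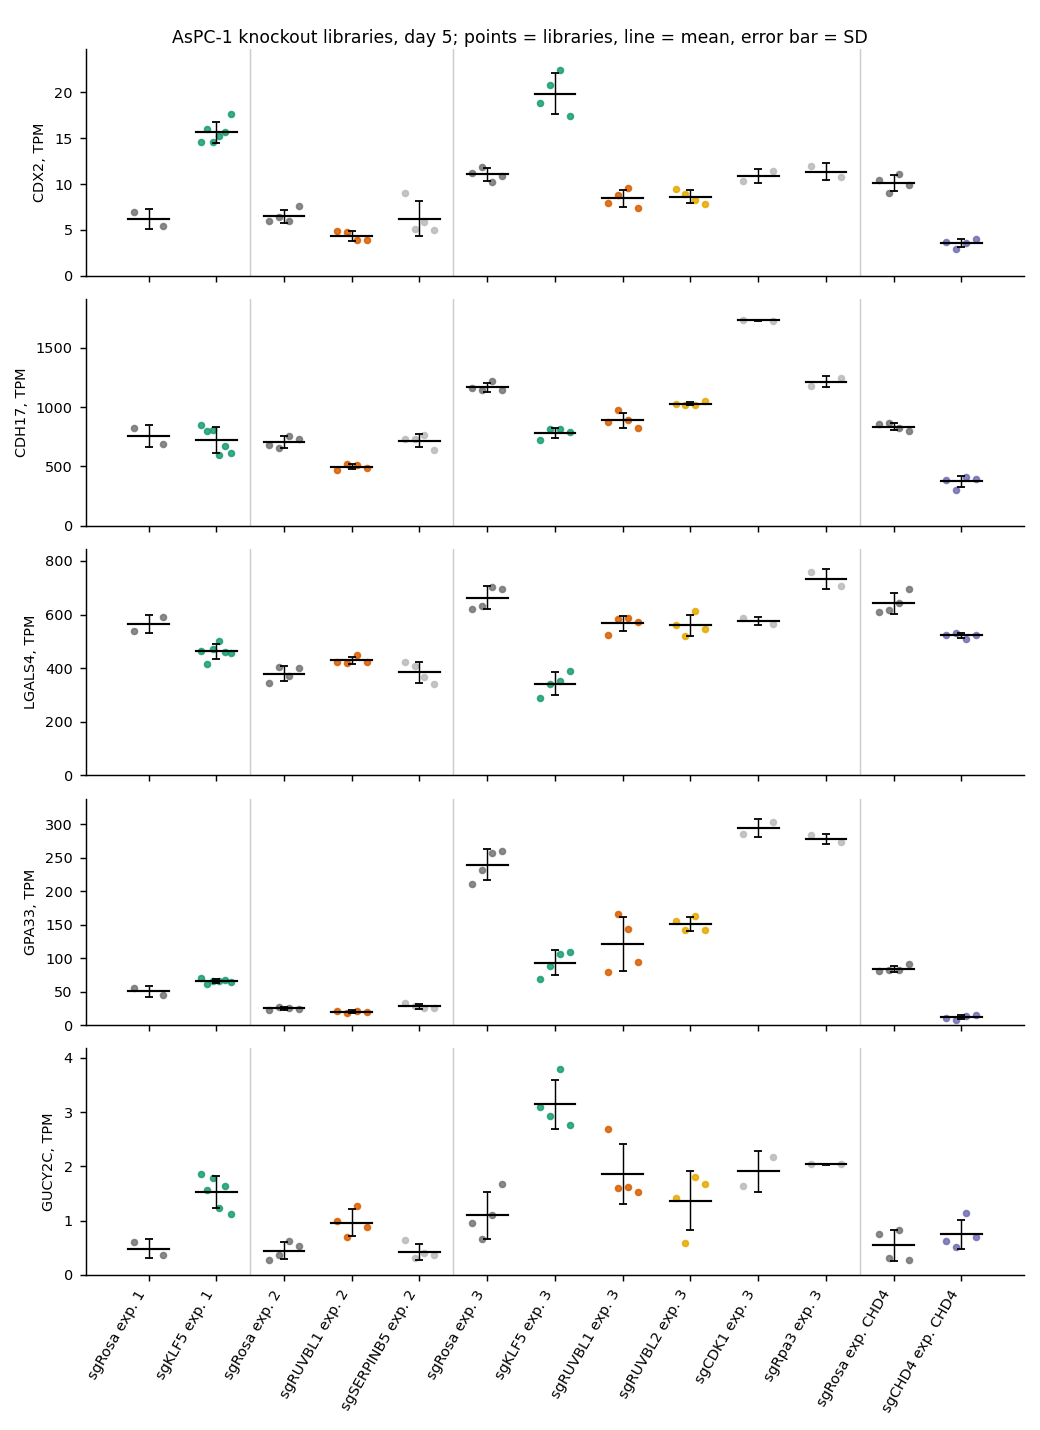
TPM of CDX2, CDH17, LGALS4, GPA33 and GUCY2C in 13 AsPC-1 knockout groups at day 5, with vertical lines between experiments, points as libraries, lines as means and error bars as SD. CDX2 is highest in sgKLF5 (14.6 to 22.4 TPM), GPA33 controls differ between experiments (24.8 to 239.7 TPM), and GPA33, CDX2 and CDH17 are low in sgCHD4.

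Other intestinal genes of AsPC-1 did not follow 1 direction after sgKLF5. Of 17 intestinal transcription factors 6 rose and 4 fell in experiment 1 and 3 rose and 6 fell in experiment 3, beside 25.9% and 27.8% of all genes passing, with 66.0% of the first higher. HNF4A (-1.06 and -1.49) and ELF3 (-0.86 and -1.37), regulators of the digestive epithelium, fell in both experiments, and FOXA1 (2.36 and 1.83) and FOXA3 (1.79 and 1.63) rose. HNF4G rose in experiment 1 (0.94) and was not called in experiment 3 (-0.15, adjusted p = 0.5). Among enterocyte genes 5 of 12 rose and 3 fell, then 2 rose and 5 fell, with MYO1A at -2.37 and -2.67 and TM4SF20 at 2.49 and 1.62. Among secretory and stem cell genes REG4 rose by 5.51 and 4.15, AGR2 by 4.79 and 4.12, MUC13 by 3.01 and 1.58 and LGR5 by 2.50 and 1.77. Of the goblet and secretory list, 4 of 6 rose in experiment 1 and 2 of 5 rose and 1 fell in experiment 3, and of the colon and stem cell list 4 of 8 rose in each, with 1 and 3 falling.

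After sgRUVBL1 1 of 16 intestinal transcription factors rose and 9 fell in experiment 2, and 1 of 17 rose and 3 fell in experiment 3, where 55.8% and 51.9% of all genes passed. EHF stood at -1.48 and -0.69 and KLF5 at -0.69 and -0.53. MYO1A fell by 1.24 and 1.32 and the brush border protein VIL1 by 0.60 and 0.71. In sgRUVBL2 2 of 17 factors rose and 2 fell where 43.2% of all genes passed, and MYO1A (-0.80) and VIL1 (-0.62) fell. In sgCHD4, where 50.0% of all genes passed, 3 of 17 factors rose and 8 fell, CREB3L3 (-1.94), PDX1 (-1.66) and HNF4G (-1.55) among the latter. Of 12 enterocyte genes 3 rose and 8 fell, with TMIGD1 at -2.31 and KRT20 and PRAP1 higher by 1.88 and 1.90, and HNF4A (-0.34) fell too.

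CB-6644 in AsPC-1 with empty vector lowered GPA33 and CDX2 and raised GUCY2C. GPA33 had 84.1, 116 and 136 TPM in the 3 DMSO libraries (EV, A62T and dF109), 41.0, 37.6 and 39.5 TPM in EV with the inhibitor, 95.3, 92.1 and 102 TPM in A62T and 111, 108 and 114 TPM in dF109. CDX2 had 5.49, 6.31 and 7.04 TPM in DMSO, 2.87, 2.81 and 3.43 TPM in EV with the inhibitor, 5.50, 5.80 and 6.12 TPM in A62T and 6.68, 6.21 and 6.43 TPM in dF109. The EV inhibitor libraries lay below every other library for both genes. Against the pooled DMSO libraries the log2 fold changes in EV were -1.46 for GPA33 (adjusted p = 1.23e-06, as far as 0.245% of genes fell) and -0.85 for CDX2 (adjusted p = 1.11e-05). Against the same pool neither gene was called with a resistance variant, GPA33 standing at -0.19 in A62T and 0.01 in dF109 and CDX2 at -0.09 and 0.04. That pool holds the EV library, the lowest of the 3. Against that EV DMSO library alone, EV with the inhibitor stood at -1.08 for GPA33 and -0.69 for CDX2. Set against the DMSO library of its own vector, GPA33 in dF109 turned direction and was called lower (-0.29, adjusted p = 0.0104), with all 3 libraries below it, and in A62T it was -0.27 (adjusted p = 0.14), or -0.38 (adjusted p = 0.0117) when the pool was taken without the EV library. CDX2 was -0.10 and -0.11 against its own DMSO library in A62T and dF109, neither of them called. Whether GPA33 was called lower with a variant thus depended on the control used.

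GUCY2C rose from 1.01, 1.01 and 1.14 TPM to 2.36, 2.45 and 2.92 TPM in EV (0.80, adjusted p = 1.55e-05), and more weakly to 1.57, 1.67 and 1.54 TPM in A62T (0.34, adjusted p = 0.0374) and 1.99, 1.58 and 1.64 TPM in dF109 (0.41, adjusted p = 0.00783). The A62T call was lost after median-of-ratios scaling (0.26) and without any 1 of its libraries but EV DMSO (0.32 to 0.37). LGALS4 was 642, 588 and 615 TPM in DMSO and 686, 705 and 664 TPM in EV with the inhibitor (0.16, adjusted p = 0.00828), a direction that turned after scaling (-0.11, adjusted p = 0.228). CDH17 had 924, 1165 and 1094 TPM in DMSO and 943, 940 and 1001 TPM in EV with the inhibitor (-0.14, interval -0.29 to 0.02, adjusted p = 0.106), lower after scaling (-0.41, adjusted p = 0.00557). In dF109 CDH17 was 1230, 1181 and 1257 TPM (0.21, adjusted p = 0.0371, not called at 0.01 after scaling, nor without the EV DMSO library or any dF109 CB-6644 library, at 0.11 to 0.24). The counts were 2 higher and 2 lower of 5 in EV where 64.4% of genes passed (73.3% of them higher, 41.2% after scaling), 1 higher of 5 in A62T where 12.7% passed, and 2 higher of 5 in dF109 where 33.4% passed.

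Compared directly under the inhibitor, EV was lower than A62T in GPA33 (-1.27, adjusted p = 7.33e-06), CDX2 (-0.76, adjusted p = 4.98e-05) and CDH17 (-0.34, adjusted p = 0.00152), and lower than dF109 in GPA33 (-1.47, adjusted p = 3.42e-06), CDX2 (-0.88, adjusted p = 1.86e-05) and CDH17 (-0.35, adjusted p = 0.00158). GUCY2C was higher in EV by 0.46 (adjusted p = 0.00144) and 0.39 (adjusted p = 0.00489), and LGALS4 by 0.16 and 0.19, neither of which was called after scaling (0.03 and 0.12). All 5 members passed both comparisons, where 51.1% and 47.2% of all genes did. The vectors have 1 DMSO library each, so vector and inhibitor effects share that library, and under DMSO the EV library had the lowest GPA33, CDX2 and CDH17 of the 3. Its CDH17 was 924 TPM beside 1165 in A62T and 1094 in dF109. EV with the inhibitor stood 0.057 above its own DMSO library on the log2 scale. In the CDH17 differences, vector and inhibitor cannot be told apart. This limit covers part of the GPA33 and CDX2 differences too. In DMSO, GPA33 was 84.1 TPM in EV beside 116 in A62T and 136 in dF109, and CDX2 5.49 TPM beside 6.31 and 7.04.

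Of 15 intestinal transcription factors in AsPC-1 EV cells, 3 rose and 7 fell under CB-6644 where 64.4% of all genes passed (median -0.23 against 0.19 over all genes), with EHF at -1.49, KLF5 at -0.53 and HNF4G at -0.45, and HNF4A was not called (-0.06, adjusted p = 0.62). Of 11 enterocyte genes 5 rose and 3 fell, among them MYO1A at -1.07, ANPEP at 0.81, CDHR2 at 0.78 and CDHR5 at 0.72.

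T3M-4, a basal-type line, had 3 members to test under CB-6644. GUCY2C was the 1 that passed in each vector, but its DMSO mean was 0.739 TPM and it met the filter through the inhibitor libraries, so its calls are given as a description. It went from 0.561, 1.08 and 0.575 TPM in the EV, A62T and dF109 DMSO libraries to 2.19, 2.17 and 2.22 TPM in EV (0.89, adjusted p = 0.000463), 1.43, 1.62 and 1.05 TPM in A62T (0.45, adjusted p = 0.0182, not called at 0.27 after scaling, nor without any of 4 of its 6 libraries, at 0.37 to 0.43) and 1.70, 1.79 and 1.65 TPM in dF109 (0.66, adjusted p = 0.00513). Passing shares over all genes were 34.3%, 50.0% and 37.6%, in the same order. EV exceeded A62T by 0.44 (adjusted p = 0.0164, 1 member of 3 where 50.6% of genes passed), which was 0.34 (adjusted p = 0.074) without A62T CB-6644 replicate 3. Against dF109 the difference was 0.23 (adjusted p = 0.168), none of 3 members passed by limma or had an unadjusted p under 0.05, and 34.6% of genes passed. CDX2 had 2.94 TPM as the mean of DMSO and was not called in EV (-0.06, adjusted p = 0.754), unlike in AsPC-1, a difference between lines that was not tested. CDH17 was 1.73, 0.333 and 0.277 TPM in DMSO and 1.63, 3.70 and 0.661 TPM in EV (0.72, adjusted p = 0.183), and it too met the filter through inhibitor libraries.

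**Figure D4:**
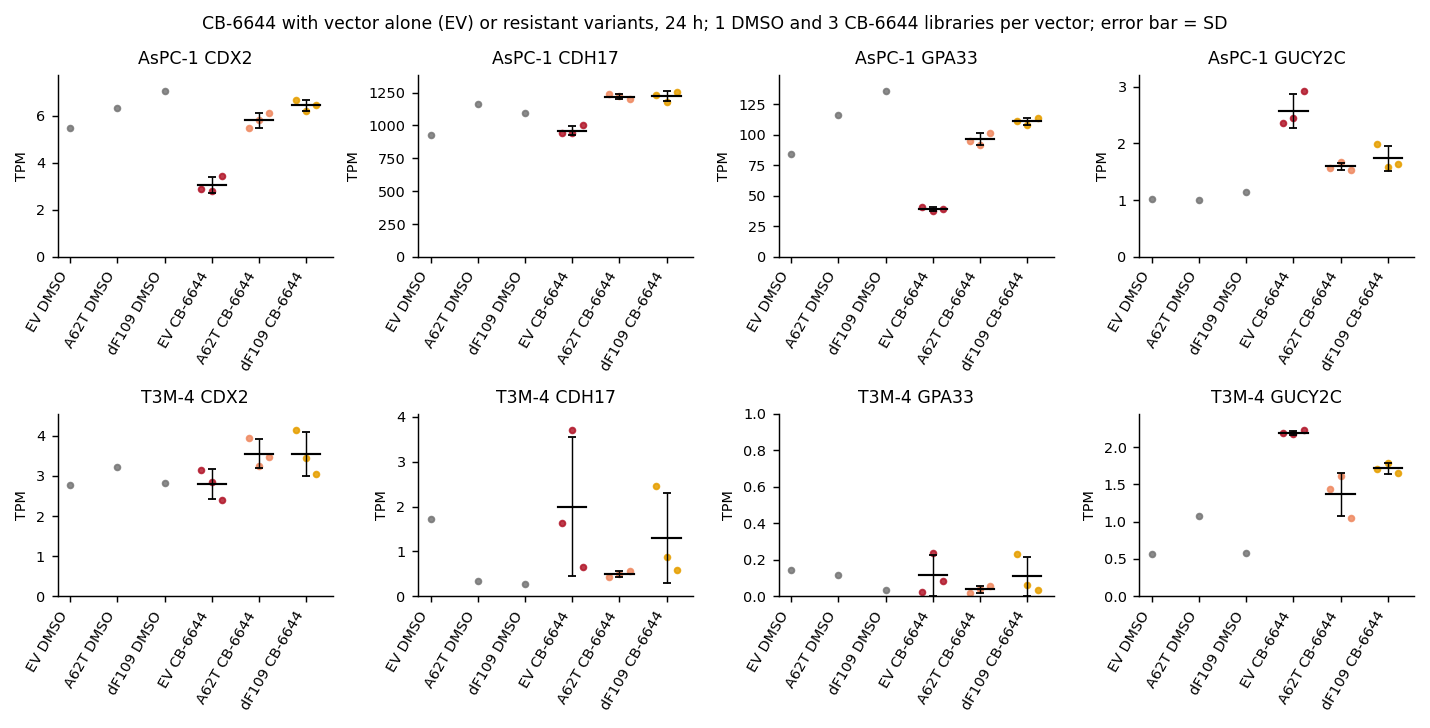
TPM of CDX2, CDH17, GPA33 and GUCY2C in AsPC-1 (top) and T3M-4 (bottom) cells with empty vector (EV), RUVBL1 A62T or RUVBL2 dF109, 1 DMSO library (grey) and 3 CB-6644 libraries (coloured) per vector, with the mean and SD of the CB-6644 groups. In AsPC-1, GPA33 (37.6 to 41.0 TPM) and CDX2 (2.81 to 3.43 TPM) are lowest in EV with the inhibitor, and GUCY2C is highest there in both lines.

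In the other pancreatic lines few members were expressed. SUIT-2 had LGALS4 at 175, 164, 180 and 177 TPM in sgRosa and 92.4, 98.5, 120 and 135 TPM in sgKLF5, a log2 fold change of -0.65 (SE 0.14, adjusted p = 0.0334) without overlap. It was the 1 member of 3 that passed, where 3.94% of all genes did (74.6% of them higher, 59.7% after scaling), and the call was lost when any of 6 of the 8 libraries was left out, at -0.57 to -0.69 (all but sgRosa replicate 1 and sgKLF5 replicate 4). CDX2 had 6.32, 10.2, 11.4 and 12.8 TPM in SUIT-2 sgRosa and 6.64, 5.67, 9.68 and 8.41 TPM in sgKLF5 (-0.36, interval -0.94 to 0.22), and CFTR 0.856, 1.2, 2.97 and 4.5 TPM and 3.01, 3.06, 3.33 and 1.08 TPM (0.18, interval -0.68 to 1.03). Both intervals are wide, and neither a rise as in AsPC-1 nor no change was shown for CDX2.

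CFPAC-1 had 3 members near 1 TPM. CDH17 was 1.85, 0.378, 1.59 and 1.94 TPM in sgRosa and 0.289, 0.403 and 0.447 TPM in sgKLF5, with 1 sgRosa library among the sgKLF5 values (-0.76, adjusted p = 0.0283, lost without any library but sgRosa replicate 2, at -0.65 to -0.80). That was 1 of 3 members, against 16.2% of genes. CDX2 had 2.93, 2.42, 2.22 and 2.1 TPM in sgRosa and 2.92, 1.56 and 2.48 TPM in sgKLF5 (-0.06, interval -0.41 to 0.29). LGALS4 had 1.65, 0.847, 0.939 and 1.63 TPM and 0.814, 0.443 and 1 TPM (-0.36, interval -0.79 to 0.06). Against sgCDK1 and sgRpa3, CDH17 (-0.92, adjusted p = 0.00306) and LGALS4 (-0.77, adjusted p = 0.00555) were lower, 2 of 3 where 43.7% of genes passed. In sgRUVBL1 none of 3 members passed by limma or had an unadjusted p under 0.05 (43.8% of genes passing), and in sgRUVBL2 none passed and 1 had an unadjusted p under 0.05 (12.1%).

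CFTR rose in T3M-4 after sgKLF5, from near the floor. In experiment 2 it had 0.133, 0.0587, 0.0606 and 0.0992 TPM in sgRosa and 6.19, 5.84, 6.14 and 4.84 TPM in sgKLF5, 65.5-fold as high by the means (log2 fold change 2.63 on the log2(TPM + 1) scale, SE 0.097, adjusted p = 1.94e-12). It stood at 0.288, 0.310 and 0.0955 TPM in sgRUVBL1, 0.356, 0.214, 0.285 and 0.168 TPM in sgRUVBL2, 0.126 and 0.139 TPM in sgCDK1 and 0.0904 and 0.248 TPM in sgRpa3. The sgKLF5 libraries lay above all of these, and CFTR met the filter only through them, so the call is given as a description. A rise as large was found for 0.204% of genes, and 34.6% passed. Of the 2 members tested CFTR was the 1 that passed, here and against sgCDK1 and sgRpa3 (2.55, adjusted p = 4.34e-12, with 28.4% of genes passing). CDX2 was not called (-0.06, interval -0.30 to 0.18), and the rise of CFTR by itself was not read as a gain of intestinal identity. No member passed in sgRUVBL1 by limma, with none at an unadjusted p under 0.05 and 60.5% of genes passing. None passed in sgRUVBL2, with both at an unadjusted p under 0.05 and 54.5% of genes passing.

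In T3M-4 experiment 1 the same knockout gave 0.292, 0.154, 0.618 and 0.522 TPM of CFTR, with the sgRosa libraries at 0.0597 TPM or less, below the filter. CDX2, the 1 member tested there, did not pass by limma (-0.02, interval -0.55 to 0.51) nor at an unadjusted p under 0.05, where 5.72% of genes passed, and the interval spans changes in both directions. The effect on CFTR in experiment 1 was smaller than that in experiment 2 by 2.22 on the log2 scale (difference -2.22, adjusted p = 1.41e-08), the 1 of 2 members that passed where 17.4% of all genes did, and it rests on the same sgKLF5 libraries of experiment 2. BxPC-3, the other basal-type line, had no member above the filter. Its CFTR had 0.604, 0.855, 0.396 and 0.739 TPM in sgKLF5 of experiment 1 and was listed at 0 in both sgRosa libraries. In experiment 2 it had 0.296, 0.462, 0.133 and 0.307 TPM against at most 0.0383 TPM. With no filter on low values BxPC-3 CFTR passed in both (0.71, adjusted p = 0.0038, and 0.36, adjusted p = 0.0002), at levels under 1 TPM.

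**Figure D5:**
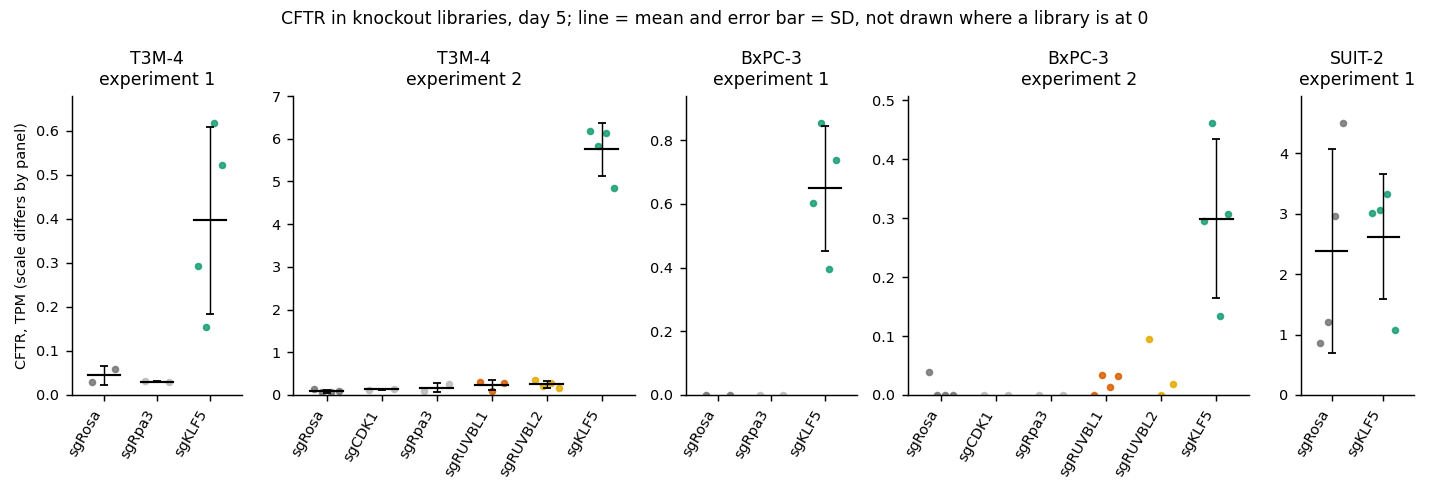
CFTR in TPM, on a scale that differs by panel, in the knockout groups of T3M-4, BxPC-3 and SUIT-2 at day 5, with points as libraries, lines as means and error bars as SD, left out where a library is at 0. In T3M-4 experiment 2 the sgKLF5 libraries (4.84 to 6.19 TPM) lie above every other group, in experiment 1 and in BxPC-3 they stay under 1 TPM, and in SUIT-2 the groups overlap.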

How the data were processed

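RNA-seq was made from polyA RNA of 183 libraries of 9 cell lines. Per the labels and the methods of the study, the authors quantified reads with kallisto, summed transcripts to 19875 gene names on hg38 and deposited 8 tables in TPM (scaled for transcript length, each library summing to 1000000). No counts were given, so depth is unknown and the number of libraries sets the precision. Every column was mapped to a sample (0 left out), and 0 pairs of libraries were identical. The knockout replicates are described by the study as biological, while the labels do not say whether replicates were separate cultures, so part of the spread behind the p-values may be technical.

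Values were tested as log2(TPM + 1) with limma 3.58.1 in R 4.3.3 (empirical Bayes with trend, with genes kept when their mean over the fitted libraries reached 1 TPM, Benjamini-Hochberg over all genes tested, threshold 0.05), within a table and experiment, with all its groups in 1 fit. Fold changes on this scale understate low genes. For CB-6644 in vector lines the 3 DMSO libraries of a line were pooled. The fits were tested on simulated data. The 8 genes and the lists were chosen with earlier results of these data known. Members that met the filter were tested in each comparison and are given by value or by count, and from each list at most the 3 largest rises and 3 largest falls that passed, with HNF4A, HNF4G, GATA4, GATA6, KLF5, GUCA2A and GUCA2B. Some genes that this rule or the likeness ranking names are not reported here. Alternatives were a pseudocount of 0.1, no filter, median-of-ratios scaling, only the groups compared, the DMSO library of the same vector, a replicate block and leaving out each library. The label "batch" is the same for every sample. Same-numbered replicates did not deviate together, so the block is given only under the dependence on processing.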

Additional observations from a re-analysis of the deposited data

Results flagged for a closer look

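In 5 of 81 groups of 4 to 10 libraries 1 library stood apart from the others by Dixon's ratio, and chance gives about 1 in 20. LGALS4 was 449 TPM in AsPC-1 sgRUVBL1 replicate 3 of experiment 2, with the other libraries at 420 to 423 TPM, and 1.89 TPM in RH30 DMSO replicate 4, with the others at 0.742 to 0.929 TPM. GPA33 was 90.6 TPM in sgRosa replicate 4 of the CHD4 experiment, with the others at 80.8 to 82.4 TPM. CFTR was 1.08 TPM in SUIT-2 sgKLF5 replicate 4, with the others at 3.01 to 3.33 TPM. GUCY2C was 2.70 TPM in AsPC-1 sgRUVBL1 replicate 2 of experiment 3, with the others at 1.53 to 1.63 TPM.

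The effect of 1 knockout differed between experiments of 1 line in 6 tests by limma. For sgKLF5 in AsPC-1, experiment 1 minus experiment 3 was 0.50 for CDH17 (adjusted p = 0.0239), 0.67 for LGALS4 (adjusted p = 0.000472) and 1.76 for GPA33 (adjusted p = 3.98e-05). For sgRUVBL1 in AsPC-1, experiment 2 minus experiment 3 was 0.40 for LGALS4 (adjusted p = 0.00945) and 0.74 for GPA33 (adjusted p = 0.0184). For sgKLF5 in T3M-4, experiment 1 minus experiment 2 was -2.22 for CFTR (adjusted p = 1.41e-08). CFTR met the filter there only through the sgKLF5 libraries of experiment 2, so that value is a description. Over all genes 4.28%, 18.2% and 17.4% passed, in the same order of comparisons. Between these experiments the sgRosa level of GPA33 in AsPC-1 differed as well, from 24.8 to 239.7 TPM, and the part of that difference in the results was not tested.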

How the results depend on the processing

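Of 85 called values of members, 76 kept direction and call under median-of-ratios scaling, 8 lost the call and 1 turned; with a pseudocount of 0.1, 84 kept it and 1 lost it, with no filter 80 and 5, with only the groups compared 58 and 4, and with the DMSO library of the same vector 6 and 4. Leaving out 1 library kept the call in 667 fits and lost it in 64. Same-numbered replicates did not pair the samples: in 33 comparisons their deviations correlated between -0.46 and 0.35, and in 0 did every pair exceed 0.1. With a replicate block 61 calls were kept and 3 lost, the members called in SUIT-2 sgKLF5 went from 1 to 0, and CDH17 in AsPC-1 sgKLF5 of experiment 1 turned from -0.07 to 0.13.

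With no filter, members called were 2 in SUIT-2 sgKLF5 (1 with it), 1 in T3M-4 sgKLF5 of experiment 1, 2 in T3M-4 sgRUVBL2, 2 in A375 with CB-6644, 1 in each BxPC-3 sgKLF5 experiment and in their difference, 2 in BxPC-3 sgKLF5 and 1 in sgRUVBL2 against sgCDK1 and sgRpa3 (0 with it in all of these), 1 in AsPC-1 dF109 with CB-6644 (2 with it), and 2 in T3M-4 EV with CB-6644 and in T3M-4 EV against A62T (1 with it). With only the groups compared they were 3 in AsPC-1 sgCDK1 (1 in the shared fit), 0 in CFPAC-1 sgKLF5, AsPC-1 A62T and T3M-4 A62T (1 each) and 1 in AsPC-1 dF109 (2). Scaling left 0 in AsPC-1 and T3M-4 A62T and gave 1 in T3M-4 EV against dF109 (0), the DMSO library of the same vector left 0 in both A62T groups, and a pseudocount of 0.1 gave 1 in T3M-4 sgRUVBL1 and in sgRUVBL2 (0).

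Leaving out 1 library gave ranges of members called of 1 to 4 in AsPC-1 sgKLF5 of experiment 1 (1 without sgRosa replicate 2), 3 to 4 in AsPC-1 sgRUVBL1 of experiment 3 (5 in full), 0 to 1 in SUIT-2 sgKLF5, T3M-4 sgRUVBL2, CFPAC-1 sgKLF5, H1048 and T3M-4 A62T, 0 to 2 in AsPC-1 A62T and in T3M-4 EV against A62T, 1 to 2 in AsPC-1 dF109, in T3M-4 EV and in the sgRUVBL1 difference of AsPC-1, and 0 to 1 in the sgKLF5 difference of T3M-4, where CFTR dropped under the filter without any 1 sgKLF5 library of experiment 2.

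Values that turned direction were CDH17 in AsPC-1 sgKLF5 of experiment 1 (-0.20 to 0.052 on leaving out 1 library), CFTR in SUIT-2 (-0.063 to 0.46) and in T84 (-0.049 to 0.089, and -0.15 after scaling), CDX2 in T3M-4 sgKLF5 of experiment 2 (-0.13 to 0.0047) and in T3M-4 EV (-0.12 to 0.023, and 0.00603 with its own DMSO library), CDH17 in AsPC-1 EV with its own DMSO library (0.057), CDX2 and GPA33 in AsPC-1 dF109 (-0.14 and -0.18 after scaling, -0.11 and -0.29 with its own DMSO library, -0.044 to 0.11 and -0.18 to 0.16 on leaving out 1 library), GUCY2C in T84 (-0.15) and LGALS4 in AsPC-1 EV (-0.11) after scaling, GUCY2C in the sgKLF5 difference of AsPC-1 (0.0017 with a pseudocount of 0.1), and in the sgRUVBL1 difference CDH17 (0.039 after scaling) and GUCY2C (0.24 with that pseudocount, 0.12 after scaling, -0.14 to 0.11 on leaving out 1 library). The cause was not tested.

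Counts over all genes that moved by over 1.5 times were, with only the groups compared, AsPC-1 sgCDK1 2040 to 4135, sgRpa3 80 to 530, A62T 1561 to 130 and dF109 4098 to 1950, CFPAC-1 sgKLF5 2067 to 874 and sgRUVBL2 1542 to 1, and T3M-4 EV 4599 to 1538, dF109 5038 to 3153, sgKLF5 of experiment 1 723 to 457 and its difference 2285 to 215. After scaling they were SUIT-2 496 to 829, T3M-4 A62T 6698 to 3878, dF109 5038 to 3280, sgKLF5 of experiment 1 723 to 2540 and its difference 2285 to 3932. With the replicate block they were SUIT-2 153, T3M-4 sgKLF5 of experiment 1 4391 and its difference 7846. AsPC-1 A62T gave 923 with no filter and 5 with its own DMSO library, T3M-4 A62T 163 with its own, and AsPC-1 sgSERPINB5 4 in full, 2 with no filter and 1 after scaling, with the groups alone or with the block. On leaving out 1 library the lowest or highest counts past that limit were 1556 (of 3075) in AsPC-1 sgKLF5 of experiment 1 and 193 (of 520) in its difference, both without sgRosa replicate 2, 1390 (of 2190) in the sgRUVBL1 difference, 691 in sgCDK1, 16 in sgRpa3, 1 and 12 in sgSERPINB5, 118 and 2813 in A62T and 1869 in dF109 of AsPC-1, 164 and 1239 in SUIT-2, 719 in CFPAC-1 sgKLF5, 78 and 2489 in its sgRUVBL2, and in T3M-4 81 and 4696 in sgKLF5 of experiment 1, 210 and 4529 in its difference, 3725 in A62T, 2383 and 7670 in dF109 and 1933 (of 4641) in EV against dF109. Where scaling moved the share of higher calls by over 10 percentage points, it lay between 14.0% and 91.1% before and between 35.1% and 69.8% after, in T3M-4 dF109 going from 91.1% to 35.1%, T3M-4 EV against dF109 from 14.0% to 45.2%, CFPAC-1 sgKLF5 from 20.1% to 55.0%, T3M-4 sgKLF5 of experiment 2 from 67.5% to 44.5% and RH30 from 64.8% to 46.1%.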

Other observations

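Values that fell under the filter and in no comparison above were these. In H1048, ISX had 0.175, 0.332, 0.348 and 0.183 TPM after CB-6644 and a mean of 0.0094 TPM in DMSO. In SUIT-2, CDH17 had 0.319, 0.468, 0.473 and 0.313 TPM in sgRosa and 0.185, 0.145, 0.161 and 0.134 TPM in sgKLF5, so the groups did not overlap. In AsPC-1 experiment 2, GUCY2C had 0.267, 0.359, 0.623 and 0.539 TPM in sgRosa and 0.992, 0.693, 1.28 and 0.879 TPM in sgRUVBL1. In CFPAC-1, CFTR had 0.578, 0.528 and 0.853 TPM in sgKLF5 and 0, 1.04, 0.0376 and 0.0923 TPM in sgRosa, which overlap.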
